A study of Mus musculus with 2 samples.

Results

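The retinoid binding and receptor genes examined here were 9 genes chosen by name: the binding proteins Crabp1 and Crabp2, the retinoic acid receptors Rara, Rarb and Rarg, the retinoid X receptors Rxra and Rxrb, and the synthesising enzymes Aldh1a2 and Aldh1a3. Of these 9 genes, 4 had at least 1 listed position in the m6A tables of day 6 mouse retinal organoids, out of 8262 named genes listed in either library. They were Crabp2, Rxra, Rxrb and Aldh1a3. The other 5 members, Crabp1, Rara, Rarb, Rarg and Aldh1a2, were not listed in either library. The members held 16 of 26441 listed positions in replicate 1 and 41 of 50099 in replicate 2.

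Both libraries came from wild-type Rx:GFP organoids, which are retinal tissue aggregates grown from a mouse stem cell line whose green fluorescent protein reports the eye-field gene Rx. All organoids were at day 6 and were grown with AGN at 0.1 µM, an additive the labels name no further. There was neither an untreated nor a mutant group. The 2 libraries therefore form 1 group (n = 2), and nothing here measures a response to AGN. Poly(A) RNA was sequenced as native strands on nanopores, and each deposited row gives a transcript position, its motif of 5 bases, a fraction modified and the coverage in reads. The coverage is not the denominator of the fraction. Within 0.0001, only 7 of 16 member fractions in replicate 1 and 15 of 41 in replicate 2 were a whole number of covering reads, against 39.5% and 36.1% over all genes. Reads printed beside a fraction are therefore the coverage of the position, the number of reads behind the fraction is unknown, and it may be smaller. Nothing in the labels says whether the libraries came from separate cultures, so the spread between them may be technical.

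Retinoic acid is made from retinaldehyde by the ALDH1A enzymes, is carried in the cytoplasm by the CRABP proteins and acts in the nucleus through RAR proteins paired with RXR partners on DNA. In the developing eye, local synthesis and breakdown of retinoic acid divide the optic cup into territories, and Aldh1a3 is one of the enzymes of that tissue. N6-methyladenosine (m6A) is a methyl mark that METTL3 and its partners place on adenosines of mRNA, within a short sequence context.

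The motif is shown first, because it is the only sequence the tables give for a position and the fraction modified varied with it. All listed positions lay on 4 motifs, and these are shown here at 6 member positions on which the results turn. They are written 5′ to 3′ in DNA letters, and the capital marks the adenosine before C, which is the base methylated in the m6A consensus.
Crabp2 position 645: ggAca
Rxra position 4298: ggAct
Rxra position 4562: ggAca
Rxrb position 1848: ggAct
Rxrb position 2168: agAct
Rxrb position 2193: ggAcc
Which base of the motif the listed position itself marks is not stated. The 18 Rxrb positions of replicate 2 covered all 4 motifs, while AGACT was missing from the 12 Aldh1a3 positions. Over all sites, here defined as positions with at least 20 reads, the median fraction at GGACA was 0.674 in replicate 1 and 0.667 in replicate 2. The corresponding medians at GGACT were 0.250 and 0.230, so fractions at different motifs are not directly comparable.

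A minimum of 20 reads left 1 member site in replicate 1 and 7 in replicate 2. That is 1 of 16 listed positions against 24.4% of all positions in replicate 1, and 7 of 41 against 32.4% in replicate 2. The single site of replicate 1 was also a site in replicate 2, against 80.8% of all sites of that library. Of the 7 sites of replicate 2, 1 was shared, against 32.2% of all. Of the 4 members listed in either library, 1, Crabp2, therefore had a site in both, against 22.8% of the 8262 named genes so listed. The position closest below the minimum was 1053 of Rxrb with 19 reads and a fraction of 0.941 in replicate 2, and the closest above it were positions 1795 and 1848 of the same transcript with 22 reads each and fractions of 0.5 and 0.0833.

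**Figure D1:**
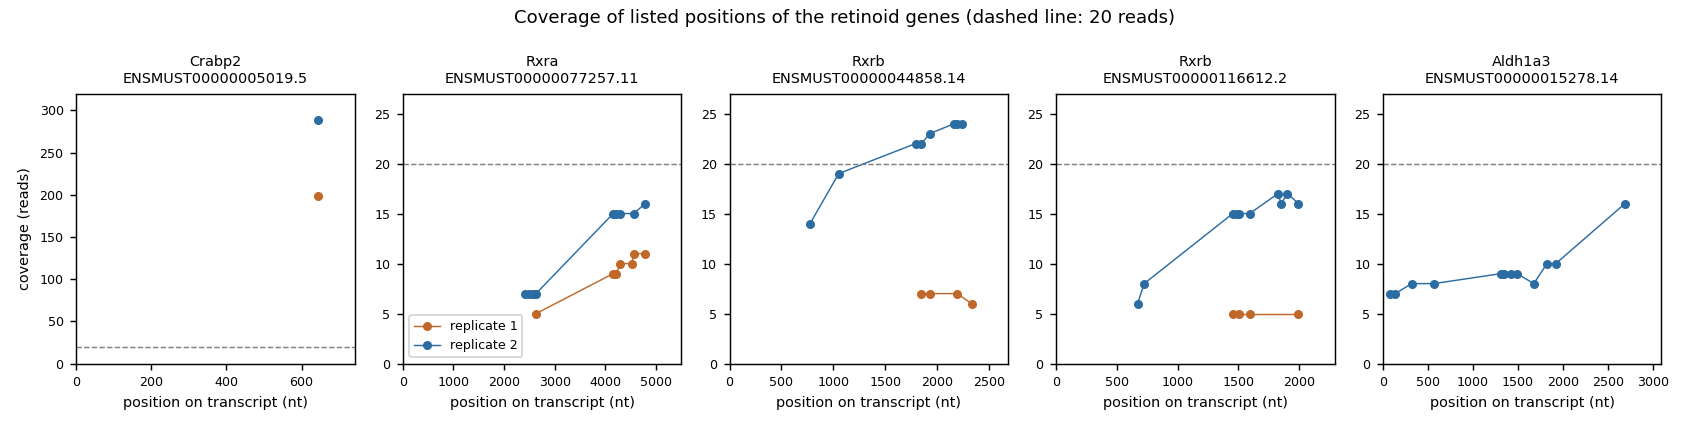
Coverage in reads against position on the transcript in nucleotides for every listed position of the 4 listed members, with replicate 1 in orange, replicate 2 in blue and the minimum of 20 reads dashed. Crabp2, on a taller axis, stood at 198 and 289 reads, while no other member exceeded 24 reads.

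Crabp2, which carries retinoic acid to its receptors, was the deepest member. Its transcript ENSMUST00000005019.5 (gene on chromosome 3, 87855973 to 87860683, coordinates as deposited) had 1 listed position, a GGACA at position 645. Replicate 1 gave a fraction modified of 0.493 with 198 reads, and replicate 2 gave 0.461 with 289 reads. Nearly equal in both libraries, these values give a mean of 0.477 ± 0.0230 (SD, n = 2).

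The difference between the libraries, replicate 2 minus replicate 1, was -0.0325 at this position. Among the 741 positions of all genes with at least 100 reads in both, the median absolute difference was 0.0245, and 59.9% differed by less than Crabp2 did. The Crabp2 difference thus lay near the middle of those of other deep positions. With 1 library on each side, the difference between the libraries was not tested. Of shared sites over all genes, 5.94% differed by more than 0.2 and 36.0% had a fraction of at least 0.5 in both libraries, and the single shared member site did neither.

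The Crabp2 fraction lay below the median of GGACA sites and above the median of sites of all motifs. It lay between the lower and upper quartiles of both. For GGACA sites these quartiles were 0.364 and 0.902 in replicate 1, and 0.350 and 0.893 in replicate 2. Of the GGACA sites, 34.5% of 2330 in replicate 1 and 33.5% of 5773 in replicate 2 had a lower fraction. When only GGACA sites with at least 100 reads were taken, these shares were 37.5% of 320 and 33.6% of 794. Over all 4 motifs, 61.1% of sites in replicate 1 and 60.1% in replicate 2 lay below it.

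The depth of this transcript also stood above most of the table. The highest coverage of a gene was lower than that of Crabp2 for 96.9% of 5699 named genes in replicate 1 and 97.1% of 8057 in replicate 2. With 1 site, Crabp2 resembled 543 of the 2026 genes with a site in replicate 1 and 748 of 3919 in replicate 2, which also had a single one.

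**Figure D2:**
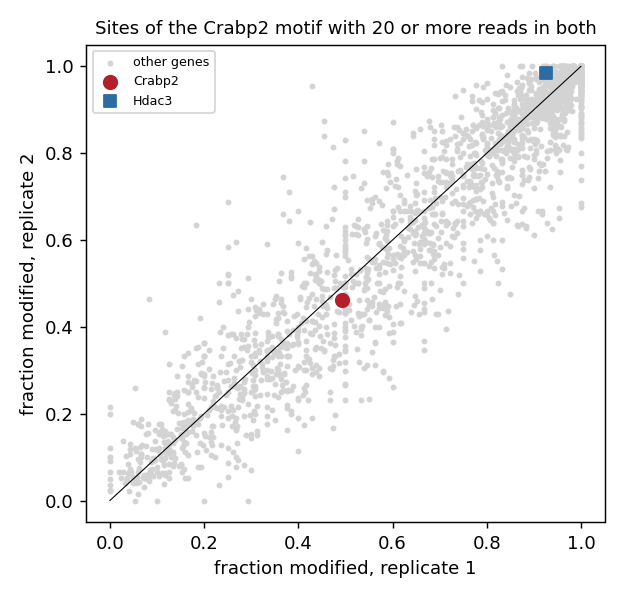
Fraction modified in replicate 2 against replicate 1 at each GGACA site with at least 20 reads in both, with Crabp2 as a red circle, the pathway gene Hdac3 as a blue square, other genes in grey and the line of equal values in black. Crabp2 lies near the middle of the range at 0.493 and 0.461, and Hdac3 near the top at 0.926 and 0.984.

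Rxrb, which encodes a retinoid X receptor that pairs with RAR and other nuclear receptors, had the most listed positions of the members. The gene (chromosome 17, 34250786 to 34257373, as deposited) was listed on 2 transcripts, ENSMUST00000044858.14 and ENSMUST00000116612.2, with 8 positions in replicate 1 and 18 in replicate 2. Coverage ran from 5 to 7 reads in replicate 1 and from 6 to 24 in replicate 2. All 6 Rxrb sites were on ENSMUST00000044858.14 in replicate 2, so no Rxrb site could be compared between libraries.

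At these 6 sites the fraction ranged from 0.0833 to 0.625. The 3 GGACT sites had 0.5 over 22 reads at position 1795, 0.0833 over 22 reads at position 1848 and 0.455 over 23 reads at position 1934. The middle one was thus the lowest of the 6 although its motif was the same. The 2 AGACT sites, at positions 2168 and 2245, had 0.526 and 0.5 over 24 reads each, above the AGACT median of 0.263 over all sites of replicate 2. The GGACC site at position 2193 had 0.625 over 24 reads, against a GGACC median of 0.231.

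Of these sites, 3 can be set beside replicate 1 only at lower depth. There, positions 1848, 1934 and 2193 had 7 reads each and fractions of 0.429, 0.667 and 0.5. Position 1848 was the lowest of the 3 in both libraries. The highest was position 1934 in replicate 1 and position 2193 in replicate 2, so their order was not the same.

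Many but not all listed positions of the 2 Rxrb transcripts repeated each other at a fixed distance. At 340 nt apart, 7 pairs of listed positions were found in either library, and all 7 had the same motif on both transcripts. No other distance gave more than 1 pair of the same motif. Positions 777 and 1053 of ENSMUST00000044858.14 and 671, 725 and 1487 of ENSMUST00000116612.2 had no listed partner at 340 nt. The pairs were found after the values had been seen.

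In replicate 2, 6 pairs were listed on both transcripts, with a median absolute difference in fraction of 0.126. Positions 2168, 2193 and 2245 differed from 1828, 1853 and 1905 of ENSMUST00000116612.2 by at most 0.0977. The 2 pairs that differed by more than 0.2 were both GGACT. At positions 1795 and 1455 the fractions were 0.5 over 22 reads and 0 over 15 reads, and at positions 1848 and 1508 they were 0.0833 over 22 and 0.400 over 15.

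The last of these pairs was also listed in replicate 1, where the fractions were 0.429 over 7 reads and 0.5 over 5. ENSMUST00000044858.14 was the lower of that pair in both libraries, by 0.0714 and by 0.317. The pair at positions 1934 and 1594 changed direction. In replicate 1 its fractions were 0.667 over 7 reads and 1.00 over 5, a gap of 0.333, while in replicate 2 ENSMUST00000044858.14 was the higher, by 0.155. The transcripts thus kept no common order. How reads that fit both transcripts were assigned is not given in the sources used here, so the values of the 2 transcripts are uncertain and may share reads. Summed over both transcripts, the paired positions had 37 to 41 reads in replicate 2 and 11 or 12 in replicate 1, so none of the 3 pairs of replicate 1 reached 20 reads.

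**Figure D3:**
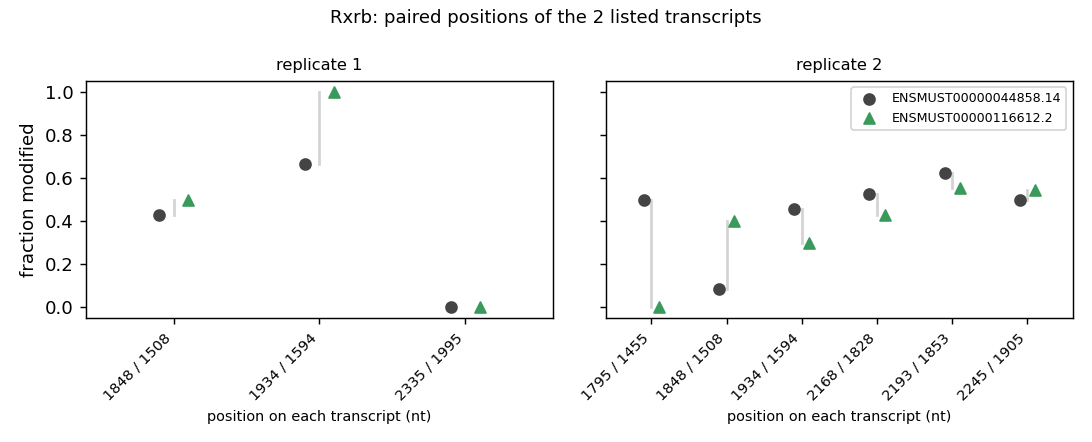
Fraction modified at paired Rxrb positions 340 nt apart, with ENSMUST00000044858.14 as grey circles and ENSMUST00000116612.2 as green triangles, for replicate 1 (left) and replicate 2 (right), labelled by the position on each transcript. In replicate 2 the pairs at 1795 and 1848 are 0.5 and 0.317 apart, and the other 4 by at most 0.155.

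Rxra, the other retinoid X receptor (chromosome 2, 27566452 to 27652969, as deposited), was listed on ENSMUST00000077257.11 in both libraries, with 7 positions in replicate 1 and 10 in replicate 2. Coverage was 5 to 11 reads and 7 to 16 reads, so it had no site at the minimum of 20. Its values are given because 6 positions were listed in both libraries.

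The same 3 of those 6 positions had the highest fractions in both libraries. The GGACT at position 4298 had 0.875 (10 reads) in the first library and 0.727 (15 reads) in the second. The GGACT at position 2630 had 1.00 over 5 reads and 0.667 over 7 reads. Over all listed positions the GGACT medians were 0.250 and 0.222, below both of these positions in each library. The GGACA at position 4785 had 0.5 over 11 reads and 0.375 over 16 reads, below the GGACA median of 0.667 over all listed positions in each library.

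The other 3 positions did not exceed 0.125 in either library. They were the AGACT positions 4155 (0.125 and 0) and 4218 (0 and 0.100), and the GGACA at position 4562 with 0.125 over 11 reads and 0.100 over 15 reads. Adjacent listed positions could thus differ widely. From position 4218 to position 4298, 80 nt further on, the fraction was higher by 0.875 in replicate 1 and by 0.627 in replicate 2, while the same position differed between libraries by 0.100 and 0.148. The 2 positions do not share a motif, and the part of the motif in the difference was not tested.

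Aldh1a3, a retinaldehyde dehydrogenase that makes retinoic acid (chromosome 7, 66040638 to 66077265, as deposited), was listed in replicate 2 alone. Its transcript ENSMUST00000015278.14 had 12 positions with 7 to 16 reads and fractions from 0 to 1.00, with a median of 0.354. The highest value was 1.00, at the GGACA positions 139 over 7 reads and 1490 over 9 reads. The lowest was 0 at the GGACC position 2689, over 16 reads, the deepest position of the gene.

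The other 5 GGACA positions of this gene spread from 0.143 at position 1921 over 10 reads to 0.800 at position 321 over 8 reads. With no second library none of these values has a replicate check, and at such depth single reads move a fraction widely.

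Coverage was higher toward the end of the members' transcripts in replicate 2. It went from 7 reads at position 80 to 16 at position 2689 of Aldh1a3, from 7 at position 2418 to 16 at position 4785 of Rxra, and from 14 at position 777 to 24 at position 2245 of the Rxrb transcript ENSMUST00000044858.14. On ENSMUST00000116612.2 it went from 6 at position 671 to 16 at position 1995. All 4 member transcripts with several listed positions thus had more reads at the highest than at the lowest one, as did 69.4% of all such transcripts in replicate 2. In replicate 1 this was so for 1 of 3 member transcripts, Rxra, against 68.2% of all.

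Over the 3 members listed in both libraries, 14 positions were listed in both, on 4 transcripts. These are 14 of 16 positions of replicate 1, against 70.9% of all positions of that library, and 14 of 41 of replicate 2, against 37.4%. Among the 14 are the Rxrb pairs 1848 with 1508 and 1934 with 1594. The positions of a pair may share reads but are counted separately. The fraction was higher in replicate 2 at 3 positions, lower at 10 and equal at 1. Over all genes, 8073 positions were higher, 8802 lower and 1881 equal.

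A difference of more than 0.2 occurred at 4 of the 14 positions, against 22.1% of all positions listed in both. All 4 were GGACT with 5 to 7 reads in replicate 1. They were positions 2630 of Rxra, 1848 and 1934 of Rxrb, and 1594 of the second Rxrb transcript, where the fraction was 1.00 over 5 reads and 0.3 over 15. Positions 1934 and 1594 are a pair that may share reads. Without Crabp2 the lower coverage of the members' positions was 5 to 11 reads, and 4 of 13 then differed by more than 0.2, against 32.4% of the 9607 positions of all genes in that range. Their median absolute difference was 0.125, and that of the 9607 positions was 0.133.

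A fraction of at least 0.5 in both libraries was found at 3 of the 14 positions, against 34.5% of all positions listed in both. These were positions 2630 and 4298 of Rxra and 2193 of Rxrb. A fraction under 0.5 in both was found at 7 of the 14, among them Crabp2, against 51.1% of all.

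**Figure D4:**
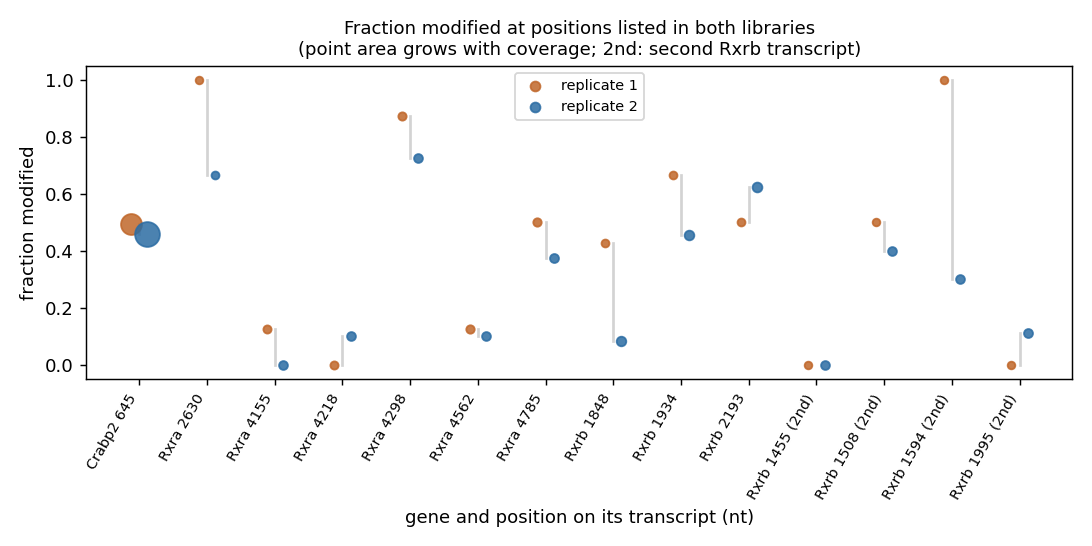
Fraction modified at the 14 positions listed in both libraries, labelled by gene and position on the transcript, with replicate 1 in orange, replicate 2 in blue, a grey line joining both and the point area growing with coverage. Crabp2 has the largest points, 0.0325 apart, and the widest gap, 0.700, is at position 1594 of the second Rxrb transcript.

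In all, 2 member positions were listed in replicate 1 and not in the deeper replicate 2. Position 4522 of Rxra, a GGACC, had a fraction of 0.750 over 10 reads in replicate 1, while replicate 2 listed positions 4298 and 4562 on either side of it with 15 reads each. Position 2335 of Rxrb, an AGACT, had 0 over 6 reads in replicate 1. It was not listed in replicate 2, although its pair on the other transcript, position 1995, was listed there with 16 reads.

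The coverage of an unlisted position is not known, so whether such positions had fewer reads there was not tested. Over all genes, 103 of the 845 positions with at least 100 reads in replicate 1 (12.2%) were not listed in replicate 2, and 235 of 2120 (11.1%) were missing the other way. The rule by which a position was listed is not given in the sources used here. Why Crabp1, Rara, Rarb, Rarg and Aldh1a2 were not listed was not tested. No expression level can be read from their absence, and none of the RAR genes gave a value to set beside those of their RXR partners.

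Other genes of the retinoid pathway were taken from a list of 43. Of these, 12 were listed in replicate 1 and 17 in replicate 2, 4 and 5 had a site, and 3 had a site in both, not all of which are described here. Over all named genes listed in a library, 35.6% had a site in replicate 1 and 48.6% in replicate 2.

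Of the 20 genes of retinoid storage, transport, synthesis and breakdown, 8 were listed in either library and 2 had a shared site. Fabp5, a fatty acid binding protein that can also carry retinoic acid, had 1 GGACC at position 649 with 0.108 over 377 reads and 0.106 over 551 reads, below the GGACC medians of 0.219 and 0.231 over all sites.

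Fabp5, like Crabp2, thus had more than 100 reads in both libraries, with a lower fraction at another motif. Adh5, an alcohol dehydrogenase, had a GGACT at position 517 with 0.0753 over 102 reads in replicate 1 and was not listed in replicate 2. Stra6, the cell surface retinol transporter, was listed in replicate 2 alone with at most 9 reads. The Cyp26 genes, whose enzymes break down retinoic acid, were not listed.

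Of the 10 other receptors that pair with RXR or belong to its family, 3 were listed, Ppard, Nr1h2 and Thra, none of them with more than 14 reads. Of the 13 receptor co-regulators, 8 were listed and 1 had a shared site. Hdac3, the deacetylase of the NCoR corepressor complex, had a GGACA at position 1573 with 0.926 over 29 reads and 0.984 over 65 reads, above the GGACA medians of 0.674 and 0.667 over all sites. With a minimum of 50 reads it had no shared site. Its GGACC at position 1143 had 0.348 over 27 reads and 0.381 over 60 reads. Tbl1x, another subunit of that complex, had 5 sites in replicate 2 and at most 11 reads in replicate 1.

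As a check of the labelled tissue, 6 of 7 eye-field and retinal progenitor markers were listed in both libraries, and 3 of them had shared sites. Of the pluripotency markers 0 of 3 were listed, and of the mesoderm and endoderm markers 0 of 4. Of the pigment epithelium markers 2 of 3 were listed in either library and of the neuron markers 1 of 3, with no site. Forebrain markers were listed in both libraries. Their part in the values of the retinoid genes was not tested.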

How the data were processed

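Direct RNA libraries (RNA002 chemistry, 1 µg of poly(A) RNA, about 48 h on a flow cell) were described as 1 group of 2. Per the labels, the deposited tables give a coverage count of reads, listed from 5 reads up, and a fraction modified whose denominator is not stated and, by its values, is not the coverage. The base caller, aligner, modification caller and transcript reference are not given in the sources used here. The submitters' processing notes name mm10, yet 0 of 4 member gene starts lay within 1000 bases of the RefSeq GRCm38.p6 start, so coordinates are of an unnamed build and were not combined with RefSeq. Placement in coding sequence was not analysed here.

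With pandas 2.3.3, positions of the plus tables were matched on transcript and end position. The minus tables held 0 member positions. No read counts were derived from fractions, and no interval or test was computed. Named are all 9 members, every member site shared by both libraries, the extremes of others, and pathway genes with a shared site, except for results that are not reported here. Members and lists were chosen with earlier results of these data known. Adh5, Tbl1x, Stra6, the listed receptors, the listed positions under 20 reads and the Rxrb pairs were chosen after their values were seen. Matching was tested on simulated data. Alternatives were the coverage minimum, 1 transcript per gene, matching within 5 nt and leaving out a replicate.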

Additional observations from a re-analysis of the deposited data

How the results depend on the processing

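Without a coverage minimum, 16 member positions counted in replicate 1, 41 in replicate 2 and 14 in both, in 3 members. The median fraction in replicate 2 became 0.455 in place of 0.5, the median absolute difference between libraries 0.125 in place of 0.0325, and the GGACA median over shared positions 0.434 in place of 0.477. Then 4 shared positions differed by more than 0.2, 3 had at least 0.5 in both, and 8 pathway genes were shared against 3. Raising the minimum to 50 reads left replicate 2 with 1 member site, with a median of 0.461, and 2 shared pathway genes, since Hdac3 was lost. These shifts follow from positions of fewer reads entering or leaving. The 10 results recomputed with 1 transcript per gene and the 6 recomputed with matching within 5 nt kept their values. For the member results neither alternative could change a value, so this is no check of them. The sites of each member lay on 1 transcript, and the single member site of replicate 1 was already matched exactly. Without either replicate the Crabp2 fraction, which is also the GGACA median, ran from 0.461 to 0.493; with n = 2 this says nothing of stability. Summing both Rxrb transcripts and describing positions under 20 reads were chosen after seeing the data. No paired analysis was possible because the samples form 1 group. Depth limits every member but Crabp2: in replicate 1 no other member exceeded 11 reads.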
